A study of Mus musculus with 2 samples.

Results

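The cells described here were picked from 2 single-cell libraries of mouse hindlimb muscle by the transcripts of 6 genes, *Sfrp5*, *Lypd2*, *Moxd1*, *Itgb4*, *Cldn1* and *Wnt6*, which have been used as markers of the perineurium. A cell was taken when these genes together gave at least 4 unique molecular identifiers (UMIs, each marking 1 captured RNA molecule) from at least 2 of the genes, and when *Pecam1*, *Cdh5* and *Ptprc*, markers of endothelial and immune cells, together gave at most 1. Of 14984 cells past the quality filters, 181 passed this gate, 58 of 7467 in the treated library and 123 of 7517 in the control library. The values that chose these cells are given below as a description and support nothing by themselves.

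Both libraries came from 24-month-old female C57Bl/6J mice with no transgene named in the labels. The muscle behind the first (ATRA+agonist) was injected 3 times with ATRA (all-trans retinoic acid) together with CD3254, which activates RXR-alpha, and BMS961, which activates RAR-gamma. The muscle behind the second (DMSO vehicle) was injected with the solvent on the same schedule. Each library pools 2 mice that cannot be told apart, and with 1 library per group no difference between the groups could be tested. All intervals below are 95% intervals that cover counting error only.

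The perineurium is the sheath of flattened cells that wraps each bundle of nerve fibers. Its cells are joined by tight junctions that contain claudin-1 (*Cldn1*), carry the glucose transporter GLUT1 (*Slc2a1*), and attach to a basal lamina through the integrin alpha-6 beta-4 (*Itga6* and *Itgb4*), and together they form a barrier between the nerve and the surrounding tissue. Schwann cells, which ensheath the axons inside, secrete desert hedgehog (*Dhh*), and perineurial cells respond to it through the receptor patched 1 (*Ptch1*) and the transcription factor *Gli1*. *Itgb4* is also a gene of Schwann cells, so that it does not separate these cell types.

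Since the injected compounds act on retinoic acid receptors, the 250 bases before the annotated start of 3 genes are shown: *Rarb*, a receptor gene with a textbook retinoic acid response element, *Stra6*, the retinol transporter gene that is among the genes that set part of the gated cells apart, and *Cldn1*, the tight junction gene of the gate. The sequences are RefSeq windows on GRCm38.p6, at chr14:16575477-16575726 on the minus strand for *Rarb*, chr9:58128838-58129087 on the plus strand for *Stra6* (the first of 4 annotated starts) and chr16:26371840-26372089 on the minus strand for *Cldn1*. Each is written 5′ to 3′ in the direction of the gene, and capitals mark a match to a searched motif.
Rarb: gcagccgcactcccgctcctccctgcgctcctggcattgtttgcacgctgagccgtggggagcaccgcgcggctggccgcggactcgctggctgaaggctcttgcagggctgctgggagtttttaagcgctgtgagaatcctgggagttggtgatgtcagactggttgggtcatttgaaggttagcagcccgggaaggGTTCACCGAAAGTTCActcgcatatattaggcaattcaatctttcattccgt
Stra6: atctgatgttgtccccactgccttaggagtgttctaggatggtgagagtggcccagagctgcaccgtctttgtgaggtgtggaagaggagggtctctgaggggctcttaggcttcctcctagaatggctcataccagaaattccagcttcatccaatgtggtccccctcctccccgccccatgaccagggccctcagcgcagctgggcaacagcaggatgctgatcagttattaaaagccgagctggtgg
Cldn1: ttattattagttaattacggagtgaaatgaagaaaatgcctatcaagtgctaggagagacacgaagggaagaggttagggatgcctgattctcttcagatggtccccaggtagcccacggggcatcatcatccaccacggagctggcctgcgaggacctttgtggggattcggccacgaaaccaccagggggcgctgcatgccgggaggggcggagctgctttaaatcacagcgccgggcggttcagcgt
The motifs searched on both strands were the direct repeat of the Rarb type (GTTCA, any 5 bases, then AGTTCA), the retinoic acid receptor half-site (AGGTCA), a GLI site (GACCACCCA) and an E-box (CACGTG). Of 32851 such windows over the genome, 9 (0.0274%) held the direct repeat, 14.0% the half-site, 0.225% the GLI site and 6.02% the E-box. The *Rarb* window held the direct repeat once, from 52 to 37 bases before the start, and none of the other motifs overlapped it. The repeat was searched without the first base of its first half-site, so the capitals and this range leave that base out. The *Stra6* and *Cldn1* windows held none of these letters, nor did the windows of *Sfrp5*, *Slc2a1* and *Ptch1*. A match or its lack describes these letters in these windows and says nothing of binding.

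The 2 libraries held 10444 and 17394 barcodes with 65197625 and 109343486 UMIs, for ATRA+agonist and DMSO vehicle. Cells past the filters had medians of 4887 and 4959 UMIs, and gated cells had medians of 6325.5 and 5469. Hemoglobin beta transcripts were in 69.2% and 95.3% of cells. The libraries shared 43 barcodes, 12 of them past the filters in both, and none of these was a gated cell. Of the gated cells, 27 of 58 and 31 of 123 were among the 7.5% of cells of their library with the highest doublet scores. They were kept, and results without them are given with the dependence on processing.

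The gate picked cells of 2 kinds. Of the 181 gated cells, 91 (50.3%, 42.8 to 57.8) also passed a gate for Schwann cells (at least 4 UMIs from at least 2 of 5 Schwann cell genes, among them *Sox10*, *Cdh19* and *Ncmap*), 28 of 58 in ATRA+agonist and 63 of 123 in DMSO vehicle. The other 90 are called Schwann-gate-negative below. A further 15 gated cells passed a gate for fibro-adipogenic progenitors (FAPs, the mesenchymal cells between fibers), 7 one for tenocytes, 2 one for endothelial cells and 1 one for muscle stem cells, some cells passing more than 1, and 70 passed no other gate.

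Markers of the perineurium were not alike in the Schwann-gate-positive cells. The gate genes *Itgb4*, *Sfrp5* and *Wnt6* were in 92.3%, 84.6% and 42.9% of them, while others were rare. *Cldn1* was detected in 7 of 91 (7.69%) and *Tenm2*, a teneurin that was named as a marker of these cells but was not in the gate, in 9 of 91 (9.89%), and 82 of 91 had neither. *Cdh19*, a cadherin gene of Schwann cells, was in 95.6% and *Sox10*, the Schwann cell transcription factor, in 55 (60.4%). In 40 of these 91 cells the gate was passed by *Sfrp5* and *Itgb4* alone. Their median was 5 gate UMIs from 2 gate genes.

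The 90 Schwann-gate-negative cells had *Cldn1* in 75 (83.3%, 74.0 to 90.4), *Tenm2* in 72 (80.0%) and both in 67. *Sox10* was in 1 cell, and *Cdh19* in 9. A UMI of *Sox10*, *Cdh19* or *Ncmap* was found in 11 of the 90, and in 90 of the 91 Schwann-gate-positive cells. *Dcn*, the fibroblast proteoglycan decorin, was in 87 of 90, compared with 18 of 91 Schwann-gate-positive cells. Their median was 15 gate UMIs from 5 gate genes, and 20 of the 90 had all 6. The values of the gate genes and of the Schwann cell genes describe how the sets were chosen. Of the markers that neither gate used, *Tenm2* was in 80.0% of negative and 9.89% of positive cells, and *Slc2a1* in 70% and 19.8%. *Ntng1*, another such marker, was in a larger share of positive than of negative cells, and the rest of the 10 perineurial markers outside the gate are given below. By *Tenm2* and *Slc2a1* the label perineurial-like matched the Schwann-gate-negative cells, and not most of the positive cells. Both sets are given below wherever they differ.

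**Figure D1:**
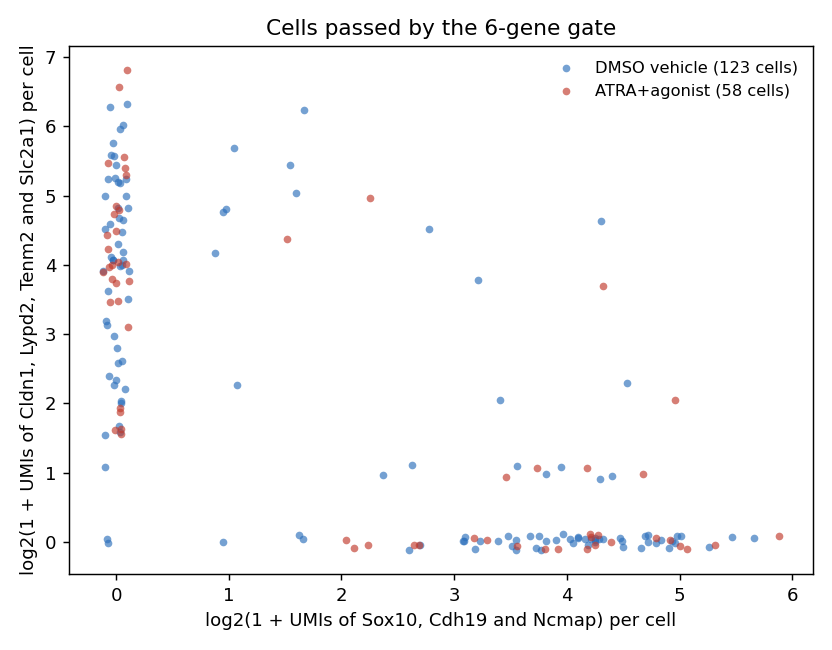
Each point is 1 of the 181 gated cells (58 ATRA+agonist in red, 123 DMSO vehicle in blue), with the summed UMIs of Sox10, Cdh19 and Ncmap on the x axis and of Cldn1, Lypd2, Tenm2 and Slc2a1 on the y axis, both as log2(1 + UMIs) with a small random shift to separate points. Most cells lie along 1 axis or the other in both libraries, and a few carry both sets of transcripts. Of the plotted genes, only Tenm2 and Slc2a1 were used by neither gate.

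The gate genes had different shares in these sets. *Lypd2*, a gene of a small surface protein family, was in 66.7% of Schwann-gate-negative cells, 4.396% of Schwann-gate-positive cells and none of 528 Schwann-like cells outside the gate, which allows a share of up to 0.568%. *Moxd1*, a monooxygenase-like gene, was in 57.8%, 25.3% and 4.73%. *Wnt6*, a secreted Wnt ligand, was in 72.2%, 42.9% and 14.6%. *Sfrp5*, a secreted Wnt antagonist, was in 84.4% and 84.6% of the gated sets and in 38.8% of Schwann-like cells. *Itgb4* was in 73.3%, 92.3% and 29.2%. *Sfrp5* and *Itgb4* were thus frequent in Schwann-like cells that the gate left out, while *Lypd2* and *Cldn1* were close to absent there.

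**Figure D2:**
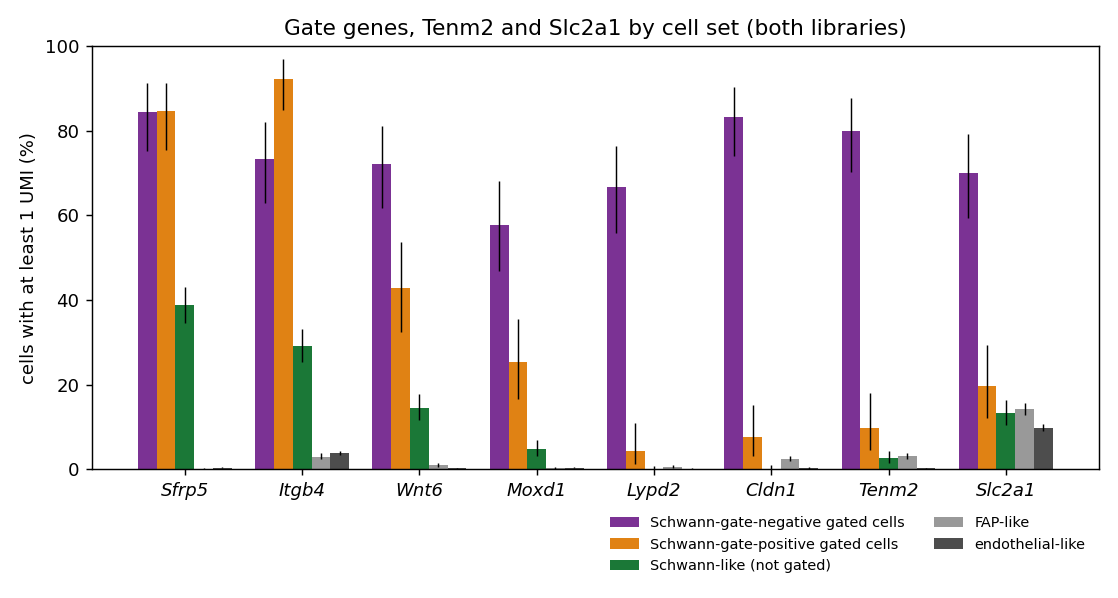
Bars give the share of cells (%) with at least 1 UMI of each gene in 5 cell sets, both libraries together, with exact 95% intervals. Cldn1, Lypd2 and Tenm2 are frequent in Schwann-gate-negative gated cells, and Sfrp5 and Itgb4 are frequent in both gated sets.

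When cells were chosen by 5 gate genes and the sixth was read as a held-out value, it was found in 75.9% of cells for *Sfrp5*, 72.6% for *Itgb4*, 50% for *Wnt6*, 42.4% for *Cldn1*, 37.3% for *Moxd1* and 33.1% for *Lypd2*. Endothelial-like cells gave from 0.137% (*Lypd2*) to 3.82% (*Itgb4*), at a median of 3392 UMIs per cell against 5307.5 to 5970 in the chosen cells. That class had no upper limit on *Cdh5*, so it can hold cells rich in the gate genes and is not a clean background. Among the chosen cells outside the Schwann gate, the held-out share was 81.7% for *Cldn1* and 64.3% for *Lypd2*, and among those inside it 6.67% and 4.396%. For *Itgb4* the order was reversed, 71.8% outside and 75.0% inside. After each cell was thinned to 2000 UMIs, *Cldn1* was found in 77.8% (ATRA+agonist, 3 shallower cells left out) and 68.6% (DMSO vehicle, 9 left out) of Schwann-gate-negative cells, from 90.0% and 80.0% before.

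At the limit of the gate, 58 cells had 3 gate UMIs from at least 2 genes and were left out. Of these, 51 passed the Schwann gate and 5 had *Tenm2*. Of the 28 cells with 4 gate UMIs, just inside, 18 passed the Schwann gate and 5 had *Tenm2*, and with 5 gate UMIs it was 30 and 2 of 34. Of the 67 cells with 12 or more gate UMIs, 11 passed the Schwann gate and 57 (85.1%) had *Tenm2*.

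The limit on endothelial transcripts also met these cells. *Cdh5*, the adherens junction gene VE-cadherin, gave exactly 1 UMI in 46 of the 90 Schwann-gate-negative cells, which leaves no room under the limit for *Pecam1* or *Ptprc* in those cells. A further 55 cells (15 and 40) reached 4 gate UMIs but were left out because of 2 or more UMIs of *Pecam1*, *Cdh5* and *Ptprc*. Of these 55, 52 had *Cdh5*, 17 *Pecam1*, 3 *Ptprc*, 45 (81.8%) *Tenm2* and 49 *Cldn1*. The endothelial receptor genes *Kdr* and *Flt1* were in 7 and 5 of the 55, compared with 80.2% and 96.0% of endothelial-like cells.

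If *Cdh5* was not used, 44 cells were added, of which all had *Cldn1*, 40 had *Tenm2* and 7 had *Pecam1*. *Cdh5* stood at 415 CPM (UMIs per 1000000 summed UMIs of a cell set) in these 44 and *Pecam1* at 23.1, compared with 1002 and 1157 in endothelial-like cells and 0.903 and 15.5 in FAP-like cells. *Ptch1* stood at 1084 CPM in the added cells and 453 in the Schwann-gate-negative cells kept by the gate. So cells with *Cldn1* and *Tenm2* lay on both sides of the limit, and the gate counts only those with few *Cdh5* molecules. Of the other endothelial genes, *Cldn5* was in 0 of 90 Schwann-gate-negative cells, which allows a share of cells with a UMI of up to 3.33%, and in 1 of the 44 added cells, *Kdr* in 1 and 3, and *Flt1* in 2 and 1.

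**Figure D3:**
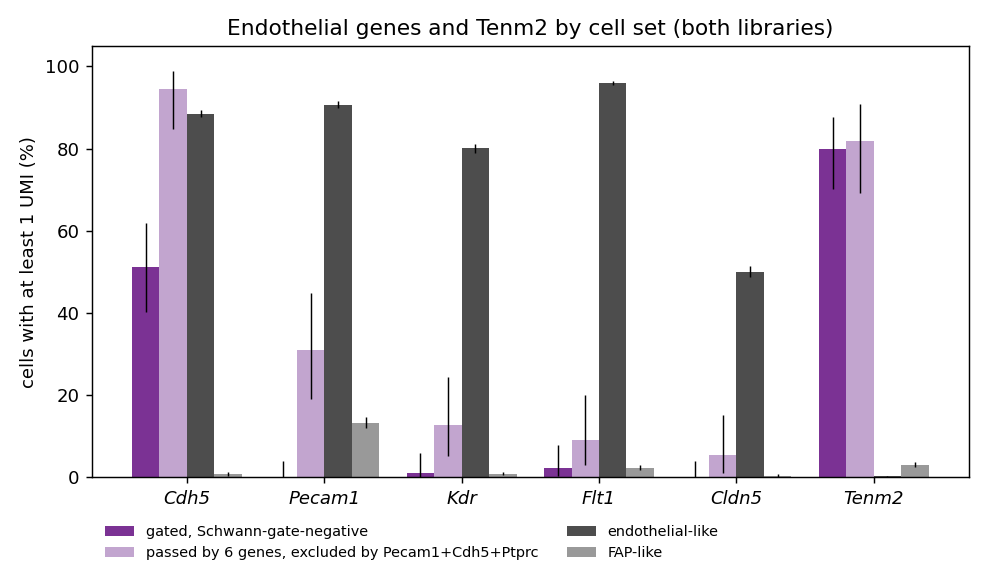
Bars give the share of cells (%) with at least 1 UMI of 5 endothelial genes and Tenm2 in Schwann-gate-negative gated cells (90), in cells that the 6 genes passed but Pecam1, Cdh5 and Ptprc excluded (55), in endothelial-like (5101) and in FAP-like cells (2440), with exact 95% intervals. Cdh5 is frequent in the first 3 sets, while Kdr, Flt1 and Cldn5 are frequent only in the endothelial-like set. In the first set Cdh5 and Pecam1 are held down by the gate itself.

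In a space of 30 principal components computed without the 6 gate genes, 53 of 181 gated cells (29.3%) had other gated cells as at least 10 of their 20 nearest cells. This was so for 51 of 90 Schwann-gate-negative cells (56.7%) and 2 of 91 Schwann-gate-positive cells (2.20%). The median Schwann-gate-positive cell had only cells of the Schwann gate around it (100%), and the median Schwann-gate-negative cell had none (0%). Another 41 cells outside the gate had Schwann-gate-negative cells as at least 10 of their nearest cells. All 41 had a UMI of a gate gene, and 35 had 2 or more UMIs of *Pecam1*, *Cdh5* and *Ptprc* together.

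The genes that stood highest in the gated cells relative to 7 reference classes (Schwann-like, tenocyte-like, FAP-like, smooth muscle or pericyte-like, muscle stem cell-like, endothelial-like and immune-like) were then ranked, among genes with at least 100 UMIs in the gated cells. The difference is on the log2(CPM + 1) scale against the highest class. Over all 181 cells the leading genes were *Hcn4* (6.27), *Lypd2* (6.07), *Cldn1* (5.70), *Tenm2* (5.11), *Sntg1* (4), *Moxd1* (3.47), *Klf5* (3.21), *Cttnbp2* (2.77), *Slc2a1* (2.76), *Olfr1033* (2.56), *C2* (2.54), *Sfrp5* (2.51), *Itgb4* (2.46), *Wnt6* (2.46) and *Fzd2* (2.40). In the Schwann-gate-negative cells alone the first 4 were the same genes with differences of 7.37 for *Hcn4*, 7.11 for *Lypd2*, 6.70 for *Cldn1* and 6.20 for *Tenm2*. *Ildr2*, of a family found at tricellular junctions (2.97), and *Pkdcc*, a secreted kinase (2.96), entered the list there. These differences describe cells chosen by their own transcripts and were not tested.

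*Hcn4*, the pacemaker channel gene of the heart, gave 150 UMIs in 40 of 90 Schwann-gate-negative cells, at 226 CPM in ATRA+agonist and 348 in DMSO vehicle, and 0.856 CPM in the highest reference class. *Tenm2* gave 1306 UMIs, at 2708 and 2644 CPM. *Klf5*, a zinc finger transcription factor, was in 69 of 90 cells at 582 and 566 CPM, and in no reference class above 30.7 CPM. *Fzd2*, a Wnt receptor, was in 65 cells at 404 and 554 CPM. *C2*, a complement component, was in 61 cells at 261 and 302 CPM. *Cttnbp2*, a cortactin-binding protein gene, was in 52 cells at 309 and 339 CPM. All these genes were found in both libraries. They were ranked by their difference from the cell classes, so its size is fixed by that choice. *Olfr1033*, from the same ranking, had a log2 ratio of -2.60 between the libraries and is described below. *Sntg1*, a syntrophin gene, rested on few cells, since 13 cells gave its 129 UMIs and 1 cell 33.3% of them.

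Gene lists of the perineurium and its neighbors were described by how many genes with at least 50 UMIs stood at least 2-fold above the highest of FAP-like, tenocyte-like and Schwann-like cells. Over all gated cells 117 of 4438 genes (2.64%) did so, and in the Schwann-gate-negative cells 182 of 1949 (9.34%). Of the listed genes, 16 of 213 did so over all gated cells, 5 of 114 in the ATRA+agonist library alone, where 2.01% of all genes did, and 12 of 179 in the DMSO vehicle library alone, where 2.79% did. The levels below are those of the Schwann-gate-negative cells unless another set is named.

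Of 10 perineurial markers outside the gate, 6 had at least 50 UMIs and 4 stood 2-fold above these classes. *Slc2a1* gave 80 UMIs in 19 of 30 ATRA+agonist cells and 226 in 44 of 60 DMSO vehicle cells, a level of 475 and 703 CPM against 43.9 CPM in the highest of all reference classes. *Itga6* stood at 885 and 1082 CPM, above FAP-like, tenocyte-like and Schwann-like cells by 2.98 on the log2 scale but level with endothelial-like cells (946 CPM). *Tjp1*, the tight junction scaffold ZO-1, stood at 463 and 411 CPM and likewise did not stand apart from endothelial-like cells (395 CPM). *Ntng1*, a netrin-G gene, was no higher than in Schwann-like cells, and the connexin gene *Gja1* was 0.32 lower on the log2 scale than in the highest class. *Msln* (22 UMIs), *Casq2*, *Nkx2-2* and *Muc1* were under 50 UMIs, with *Muc1* at 0.

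Of 32 cell junction genes, 9 had at least 50 UMIs and 6 stood 2-fold above the 3 classes. Endothelial-like cells are not among these 3, and the list summed to 3202 CPM there, against 2452 in the Schwann-gate-negative cells. *F11r*, the junctional adhesion molecule JAM-A, stood at 95 and 149 CPM against 1.41 in the highest of the 3, and at 289 CPM in endothelial-like cells. *Cgnl1*, the junction protein paracingulin, stood at 178 and 205 CPM, and *Cdh11*, a mesenchymal cadherin, at 440 and 401 CPM, both above every reference class. *Jup*, the plakoglobin gene, stood at 107 and 236 CPM. *Ocln*, occludin, had only 22 UMIs in 17 cells. *Gjb2*, connexin 26, gave 2 and 52 UMIs from 9 cells, of which 1 gave 33.3%.

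Of 32 genes of the basement membrane and hemidesmosome, 15 had at least 50 UMIs and 2 stood 2-fold above the 3 classes, *Itga6* and the tetraspanin *Cd151*. *Lamb2*, a laminin beta chain, fell just short of 2-fold at 298 CPM against 149 in tenocyte-like cells. The fibrillar collagens and proteoglycans went the other way, with 0 of 18 above and a median 1.56 lower on the log2 scale. *Dcn* was close to the FAP-like and tenocyte-like level, at 14914 and 12700 CPM against 15048 and 15959. *Igfbp6*, an insulin-like growth factor binding protein, stood at 9070 and 8563 CPM against 1495 in tenocyte-like cells, while *Col1a1* and *Col3a1* stood at 451 and 435 CPM.

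Among 18 genes of glucose and lactate handling in the files, 6 had at least 50 UMIs, and *Slc2a1* and the monocarboxylate transporter *Slc16a1* (52 UMIs, 106 CPM) stood 2-fold above the 3 classes. Among 24 barrier transporters and channels, 6 had at least 50 UMIs, and *Abcb1a* and *Slco2a1* stood above. *Abcb1a*, the drug efflux pump P-glycoprotein, stood at 249 and 271 CPM, 5.28 CPM in FAP-like cells and 219 CPM in endothelial-like cells, where this pump is known from the blood-brain barrier. *Slco2a1*, a prostaglandin transporter, stood at 95 and 168 CPM.

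The hedgehog genes fell on the 2 sides of the Schwann gate. *Dhh*, the ligand, gave 46 UMIs in 30 of the 91 Schwann-gate-positive cells (33.0%) and 2 UMIs in 2 of the 90 negative cells, with 19.3% of Schwann-like cells positive. *Ptch1*, the receptor and a target, gave 222 UMIs in 59 of 90 negative cells, at 540 and 407 CPM, against 60.8 CPM in Schwann-like cells, the highest class. *Gli1*, another target, gave 22 UMIs in 15 of 30 ATRA+agonist cells and 20 UMIs in 17 of 60 DMSO vehicle cells, or 131 and 62.2 CPM, against 11.6 CPM in FAP-like cells. It stayed under the 50 UMIs of the list count. Of 14 hedgehog genes, 5 had at least 50 UMIs and only *Ptch1* stood 2-fold above the 3 classes.

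Among 40 genes of Wnt signaling, 3 had at least 50 UMIs outside the gate, and *Fzd2* stood 3.44 above on the log2 scale. The Wnt ligand gene *Wnt10a* (31 UMIs in 19 cells) was under the limit at 63.3 CPM against 0.523 in any reference class. Among 33 neurotrophic and guidance ligands, *Efnb1*, an ephrin, stood at 165 CPM against 22.0 in the highest of the 3 classes, and *Rspo3*, a Wnt-enhancing R-spondin, at 200 CPM against 7.89. *Rspo3* came from 10 cells only. *Efnb3* (48 UMIs, 29 cells) stood at 98.0 CPM against 2.44 in any class.

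Of 28 retinoid genes, 5 had at least 50 UMIs and 3 stood 2-fold above the 3 classes: *Crabp2*, which carries retinoic acid to its receptors, *Rdh10*, which oxidizes retinol, and *Rai14*. *Crabp2* gave 56 UMIs in 22 of 90 cells, at 89.1 and 128 CPM against 8.80 in tenocyte-like cells. *Rdh10* stood at 107 and 152 CPM. *Stra6*, whose window is printed above, gave 16 UMIs in 10 of 30 ATRA+agonist cells and 32 in 19 of 60 DMSO vehicle cells, at 95 and 99.5 CPM against 2.09 in FAP-like cells and 0 in Schwann-like cells.

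Most markers of other cell types were low. Of 9 keratinocyte, 8 fiber, 8 endothelial, 6 smooth muscle and pericyte, and 5 arachnoid barrier markers, none had 50 UMIs in the Schwann-gate-negative cells. The gate's own limit on *Pecam1*, *Cdh5* and *Ptprc* leaves out cells rich in endothelial transcripts. Of 5 mesothelial markers only *Krt19*, a keratin, had 50 UMIs, at 139 CPM (68 UMIs in 33 cells). It stood 6.09 above the 3 classes on the log2 scale, while *Upk3b*, *Lrrn4* and *Wt1* were at 0. Of 5 endoneurial fibroblast markers, 2 had at least 50 UMIs, and the list summed to 820 CPM in ATRA+agonist and 460 in DMSO vehicle. The FAP markers summed to 2550 CPM against 8948 in FAP-like cells, and *Pdgfra* was in 12.2% of the cells. The tenocyte markers summed to 659 CPM, mostly *Thbs4* (447 CPM). *Lyz2*, a macrophage gene, came from 4 cells at 257 CPM, and in the Schwann-gate-positive cells from 31 of 91 at 2051 CPM, beside 26.1% (ATRA+agonist) and 34.8% (DMSO vehicle) of Schwann-like cells. Of 5 muscle stem cell markers, *Sdc4*, a syndecan, had at least 50 UMIs, at 276 CPM.

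The gated cells made up a smaller share of the ATRA+agonist library. They were 58 of 7467 cells (0.777%, 0.590 to 1.003) in ATRA+agonist and 123 of 7517 (1.64%, 1.36 to 1.95) in DMSO vehicle, a ratio of 0.475 (0.348 to 0.648). The Schwann-gate-negative cells gave a ratio of 0.503 (0.325 to 0.779), from 0.402% and 0.798%, and the Schwann-gate-positive cells one of 0.447 (0.287 to 0.698), from 0.375% and 0.838%. Over the same cells the ratio was 0.521 (0.436 to 0.622) for Schwann-like, 0.329 (0.269 to 0.401) for tenocyte-like and 0.864 (0.803 to 0.929) for FAP-like cells. Endothelial-like cells gave 1.03 and immune-like cells 1.56. The lower share was therefore not particular to the gated cells, and with 1 library per group, dissection and dissociation cannot be told apart from the treatment. Without the cells of high doublet score the ratio was 0.339, and with FAP-like, tenocyte-like, Schwann-like and gated cells as the only denominator it was 0.685.

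**Figure D4:**
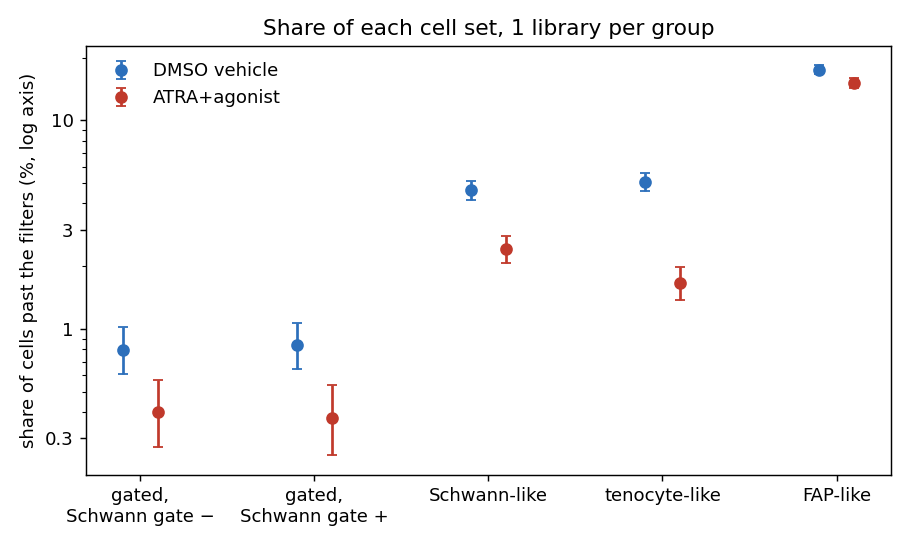
Points give the share (%, log axis) of each cell set among cells past the filters, ATRA+agonist (7467 cells) in red and DMSO vehicle (7517 cells) in blue, with exact 95% intervals and 1 library per group. The gated sets, Schwann-like and tenocyte-like cells all have a lower share in ATRA+agonist, and FAP-like cells differ least.

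For gene levels, UMIs were summed over the gated cells of each library and compared as a log2 ratio of CPM, ATRA+agonist over DMSO vehicle. Of 4438 genes with at least 50 UMIs, 46 were at least 2-fold higher (1.04%) and 158 at least 2-fold lower (3.56%) in ATRA+agonist, with 363398 and 740849 UMIs behind the sums. In the Schwann-gate-negative cells it was 44 (2.26%) and 94 (4.82%) of 1949 genes. The counting interval lay above 0 for 8.74% and below 0 for 11.2% of the 4438 genes, and for 11% and 12.9% of the 1949. The median log2 ratio was -0.03 in both. Markers of other cell types also differed between the libraries in the Schwann-gate-negative cells. The 12 Schwann cell markers summed to 505 CPM in ATRA+agonist and 236 in DMSO vehicle, with 73.3% of *Cdh19* UMIs from 1 cell, the 9 FAP markers to 2221 and 2722 CPM, and the 7 tenocyte markers to 232 and 883 CPM. The 7 immune markers summed to 529 and 146 CPM, with 64.3% of *Lyz2* UMIs from 1 cell, the 5 endoneurial fibroblast markers to 820 and 460 CPM, and the 5 muscle stem cell markers to 160 and 361 CPM. The 4 lymphatic markers were at 0 in ATRA+agonist and at 124 CPM in DMSO vehicle. Their part in the ratios below was not tested. Without the hemoglobin filter the split over all gated cells was 96 higher and 130 lower.

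The 6 gate genes chose the cells in both libraries, so their ratios are a description of the chosen cells. In the Schwann-gate-negative cells their median log2 ratio was -0.47. An interval below 0 was found for 3 of the 6, compared with 12.9% of all 1949 genes. *Itgb4*, an integrin subunit, stood at 356 and 712 CPM (log2 ratio -0.999, -1.43 to -0.58), *Sfrp5* at 1033 and 1686 CPM (-0.71, -0.96 to -0.46) and *Moxd1* at 137 and 227 CPM (-0.73, -1.48 to -0.04). *Itgb4* was in 18 of 30 and 48 of 60 cells, and *Moxd1* in 14 of 30 and 38 of 60. The other three had intervals that held 0, with *Cldn1* at 0.17 (-0.19 to 0.53), *Lypd2* at -0.21 (-0.70 to 0.25) and *Wnt6* at -0.24 (-0.79 to 0.29). Of the genes outside the gate, *Tenm2* gave 0.03 and *Slc2a1* -0.57 (-0.95 to -0.19). In Schwann-like cells outside the gate *Itgb4* gave -0.05 (-0.48 to 0.37), and *Sfrp5* gave -0.41 there. Of the 5 hedgehog genes with at least 50 UMIs, 2 had a ratio above 0, compared with 48.4% of all genes, and the median was -0.34. The interval lay above 0 for the receptor *Ptch1* (0.41, 0.01 to 0.80) and below 0 for the co-receptor *Boc* (-0.69, -1.42 to -0.01). Such intervals were found for 11% and 12.9% of all genes. *Gli1*, with 42 UMIs under that minimum, gave 1.07 (0.13 to 2.02). FAP-like cells gave 0.14 for *Gli1* and -0.16 for *Ptch1*.

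The largest fall resting on many cells was that of *Olfr1033*, annotated as an olfactory receptor gene at chr2:86020633-86045171. It gave 20 UMIs in 9 of 30 ATRA+agonist cells and 232 in 33 of 60 DMSO vehicle cells, a level of 119 and 722 CPM and a log2 ratio of -2.60 (-3.34 to -1.94), with no cell above 16.7% of the UMIs. It was lower in every other set, with 40.7 CPM in the positive cells and 41.6 CPM in the highest reference class. In FAP-like cells, at 13.7 CPM, its ratio was -0.61. *Ntng1* gave 20 UMIs in 8 of 30 and 212 in 28 of 60 cells (119 and 659 CPM, log2 ratio -2.47, -3.21 to -1.81), while in Schwann-gate-positive cells, where it was in 62.6%, it gave 0.29 (-0.14 to 0.71). *Magi1*, a junction scaffold, gave -1.69 (-2.53 to -0.95) and *Jup* -1.14 (-1.97 to -0.39). *Immp2l* and *Prickle2* were also among the 10 largest falls, at -2.04 and -1.83. That these genes differed between the cell sets was not tested.

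Other large falls came from single cells. *Cxcl14*, *Spp1*, *Ccn2* and *Slc5a3* gave log2 ratios of -6.47, -5.38, -4.15 and -3.04, but 1 vehicle cell gave 57.1%, 81.4%, 77.1% and 73.0% of their UMIs. Among all gated cells, *Tafa1* (13 and 129 UMIs, -2.28) and *Dtna* (25 and 200 UMIs, -1.97) came from the Schwann-gate-positive cells, and Schwann-like cells outside the gate gave -0.12 and -0.03. The hemoglobin genes were lower in all 4 cases, with *Hbb-bs* at 154 and 551 CPM over all gated cells, as it was at 142 and 496 CPM in FAP-like cells.

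The largest rises in Schwann-gate-negative cells were *Smurf2* (1.85), *Anxa1* (1.37), *St6gal1* (1.21), *Abca8a* (1.18), *Postn* (1.14), *S100a4* (1.12), *Fbn1* (1.10), *Col3a1* (1.06), *Wipf1* (1.01) and *Nrp2* (0.93). *Anxa1*, an annexin, gave 77 UMIs in 15 of 30 and 57 in 14 of 60 cells, at 457 and 177 CPM. *Col3a1* gave 111 UMIs in 23 of 30 and 102 in 33 of 60 cells, at 659 and 317 CPM (1.06, 0.65 to 1.46), and FAP-like cells gave 0.85. *Fbn1*, the microfibril gene fibrillin-1, stood at 540 and 252 CPM, with 23.8% of its UMIs from 1 cell. *Smurf2* had 41.6% of its UMIs from 1 cell and *Postn*, the matrix gene periostin, 27.5%. Of 24 fibrillar collagens and proteoglycans, 18 had at least 50 UMIs. Of these, 2 were at least 2-fold higher, *Col3a1* and *Postn*, 8 had an interval above 0 and 3 one below, compared with 11% and 12.9% of all genes, and the median ratio was 0.05.

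Over all 181 cells the rises named by rank included *Adamtsl1* (1.58), *Ifi27l2a* (1.45), *Serpine2* (1.29) and *Arl15* (1.15). *Ifi27l2a*, an interferon-response gene, gave 1.74 in the Schwann-gate-positive cells, where 1 cell held 41.4% of its UMIs, and 0.16 (-0.79 to 1.07) in the negative cells. *Serpine2*, a protease inhibitor gene, was higher in both sets, at 1.41 (0.59 to 2.25) and 1.27 (0.73 to 1.81).

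**Figure D5:**
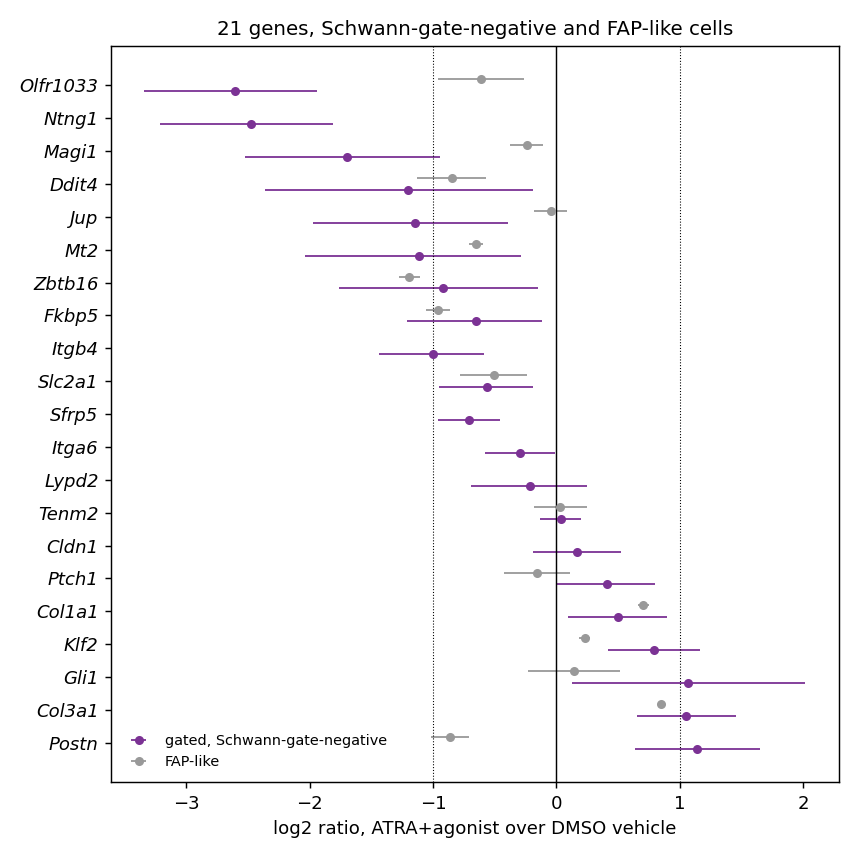
Points give the log2 ratio of CPM, ATRA+agonist over DMSO vehicle, with exact 95% counting intervals, for 21 genes, in Schwann-gate-negative gated cells (purple) and FAP-like cells (gray). All but Mt2 and Klf2 are named in the text. Itgb4, Sfrp5, Lypd2 and Cldn1 are gate genes. Dotted lines mark 2-fold, and a FAP-like point is left out under 100 UMIs. Olfr1033, Ntng1 and Magi1 lie left of the dotted line in the gated cells and not in FAP-like cells.

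Most glucocorticoid-induced genes had a ratio below 0. Over all gated cells 12 of 15 had at least 50 UMIs, and 11 of these had a ratio below 0, compared with 52.4% of all 4438 genes. The interval lay below 0 for 9 of the 12, compared with 11.2% of all genes, and 2 passed 2-fold, compared with 3.56%. Their median was -0.78, and that of all genes -0.03. *Zbtb16* gave -1.65 (-2.45 to -0.92) and *Ddit4* -1.29 (-2.32 to -0.39), the 2 that passed 2-fold, and *Fkbp5* gave -0.84 and *Tsc22d3* -0.74. In the Schwann-gate-negative cells all 10 genes with at least 50 UMIs were below 0, compared with 51.6% of all 1949 genes, with a median of -0.70. The interval lay below 0 for 7 of the 10, compared with 12.9% of all genes. FAP-like cells gave -0.96 for *Fkbp5*, -1.19 for *Zbtb16* and -1.04 for *Tsc22d3*, the same direction outside the gate. *Mt1*, a metallothionein gene, gave -0.01 (-0.37 to 0.35) in Schwann-gate-negative cells and -0.75 in FAP-like cells.

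Of the 5 retinoid genes with at least 50 UMIs in Schwann-gate-negative cells, none was 2-fold apart, with a median of -0.34. Of these, 0 had an interval above or below 0, compared with 11% and 12.9% of all 1949 genes. Over all gated cells 13 had at least 50 UMIs, of which 1 had an interval above 0 (*Fabp5*, 0.70) and 2 one below (*Rdh10*, -0.82, and *Ncoa7*, -1.23, the only one 2-fold apart). Over all 4438 genes, 8.74% had an interval above 0 and 11.2% one below. *Fabp5*, *Rdh10* and *Ncoa7* were named after their values were seen. *Rarb*, the gene with the direct repeat, gave 18 and 41 UMIs over all gated cells (49.5 and 55.3 CPM), a ratio of -0.16 (-1.05 to 0.67). *Stra6*, with 48 UMIs in Schwann-gate-negative cells, gave -0.07 (-1.03 to 0.84). A difference inside these intervals was not detectable at this depth. Immediate early genes, which respond to handling, gave 11 of 17 ratios above 0 in the Schwann-gate-negative cells, compared with 48.4% of all genes, with none 2-fold apart.

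The spread from cell to cell was large for genes of the 2 kinds of cell. After 169 gated cells were thinned to 2000 UMIs, the Fano factor (variance over mean) was 22.3 for *Dcn*, 19.8 for *Igfbp6* and 15.01 for *Cadm2*, an adhesion gene, against a median of 1.82 over 518 genes. In the 78 Schwann-gate-negative cells thinned, *Dcn* fell to 9.58 and *Igfbp6* to 8.25. *Mgp*, matrix Gla protein (15.1), *Apod*, apolipoprotein D (10.2), *Gpc6* (9.97) and *Bnc2* (9.70) then ranked high after the nuclear RNA *Malat1* and *Gm42418*.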

How the data were processed

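Droplet 3-prime libraries were made from sorted cells of digested hindlimb muscle. The authors made the deposited matrices of UMI counts per gene and barcode with Cell Ranger 7.2.0 on mm10 (GRCm38), restricted to barcodes called as cells and not normalized. The annotation release was not given in the sources used here. Both matrices hold 32285 genes.

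Cells with 300 to 5000 genes, under 20% mitochondrial and under 0.25% hemoglobin beta UMIs were kept, as the study's methods state. The study then also removed predicted doublets, at an estimated rate of 7.5%, which the main results here did not. UMIs were summed per library and cell set and scaled to 1000000 (CPM). Genes needed 50 UMIs to enter a count of genes or a list median and 100 to be ranked (ratios of *Gli1* and *Stra6*, below 50, are given with their UMIs), and a 0 was replaced by a floor of 3 counts. Shares carry Clopper-Pearson intervals, ratios of shares log-scale intervals and log2 ratios exact conditional intervals. No test was made, since each group is 1 library and cells are not replicates. Reference classes needed 4 UMIs from 2 marker genes (immune-like, 2 UMIs of *Ptprc*). Doublets were scored with 20% artificial pairs, and the highest 7.5% were left out in an alternative only. Genes were named by rank (15 highest over the reference classes, 10 largest rises and falls whose CPM times 4 reached every class, 10 highest Fano factors) or as gate or listed genes farthest from the references. *Cdh5* and the other endothelial genes, and listed genes under 50 UMIs, were named after their values were seen. On simulated counts of 4433 genes, all 195 genes changed 4-fold were recovered, and 0.448% of unchanged genes passed 2-fold. These counts held counting error only, with no spread between cells, so they give no rate of false calls for the data.

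The gate, the lists and the reference markers were chosen with earlier results of these data known. Some genes of the gates, lists and ranks entered the computations but are not reported here. Promoter windows are from RefSeq GRCm38.p6, and *Lypd2*, *Itgb4*, *Crabp2* and *Gli1* were not matched there. Python 3.11.15, numpy 2.4.6, scipy 1.17.1 and pandas 2.3.3 were used.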

Additional observations from a re-analysis of the deposited data

How the results depend on the processing

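No paired analysis was possible because each group is 1 library of pooled mice, so that no replicate could be left out either. The ratio of shares (0.475) stayed between 0.424 and 0.559 under the other settings run, and was 0.339 without cells of high doublet score and 0.685 over FAP-like, tenocyte-like, Schwann-like and gated cells only. The count of genes 2-fold apart (204) was 356 without cells of high doublet score, 64 without cells in another gate, 57 after thinning to 2000 UMIs, 727 at a minimum of 20 UMIs and 15 at one of 200 UMIs. The minimums of UMIs change how many genes are compared, and for the other settings the cause was not tested. Of 213 listed genes, 16 (7.51%) stood 2-fold above the highest of FAP-like, tenocyte-like and Schwann-like cells, compared with 2.64% of all genes, and in the ATRA+agonist library alone 5 of 114 (4.39%), compared with 2.01%. The share of gated cells with at least 50% gated neighbors (29.3%) was 22.1% with 50 nearest cells, 19.3% with 15 principal components and 56.7% without Schwann-gate-positive cells. The held-out share, pooled over the gate genes (49.1%), was 41.1% at a minimum of 3 UMIs and 70.7% without Schwann-gate-positive cells. The alternatives that leave out Schwann-gate-positive cells, *Cdh5* or the highest cell of each gene were chosen after seeing the data.

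The signs of single ratios were checked for 90 genes, against their ratios over all gated cells. These were the gate genes, *Tenm2*, *Slc2a1* and the largest rises and falls over all gated cells. Genes of the glucocorticoid, retinoid, hedgehog, cell junction and immediate early lists were added. Of 1766 alternative values, 183 had the opposite sign, in 63 genes. Of these, 36 were in the 50 genes whose interval over all gated cells left out 0. Genes named only from Schwann-gate-negative cells, such as *Ntng1*, *Smurf2*, *Anxa1* and *Col3a1*, were not in this check. Of the 23 genes beyond 2-fold over all gated cells, 6 values changed sign. *Ifi27l2a* gave -0.037 without cells in another gate and -0.0020001 with *Cdh5* not used and Schwann gate cells left out. *Sdk1* gave -2.23 without cells in another gate. *Slc5a3* gave 1.10 in Schwann-gate-positive cells only and 0.028 without its highest cell. *Herc6* gave 0.583 with *Cdh5* not used and Schwann gate cells left out. With 30 and 60 Schwann-gate-negative cells, 1949 of 32285 genes had the 50 UMIs of a comparison, and single cells can decide a sum.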
